A study of Mus musculus with 2 samples.

Results

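Guidance genes of the Slit and Robo, ephrin and Eph, and semaphorin, plexin and neuropilin families were followed in liver cells of CCl4-treated mice in which hepatocytes with high p16 expression were or were not to be eliminated by design. The 10 genes, Robo1, Robo2, Slit2, Slit3, Epha3, Epha4, Plxna4, Sema6a, Nrp1 and Efna1, were chosen by name out of 31054 measured features, and all 10 were found in both libraries. Their unique molecular identifiers (UMIs, 1 per captured transcript) were compared between libraries within stellate, endothelial and Kupffer cells, which were taken by gates on the summed UMIs of marker genes.

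Single-cell RNA-seq was performed on hepatic stellate cells (HSCs), the mesenchymal cells that deposit collagen in liver fibrosis, isolated by digestion and a Nycodenz gradient from male mice of C57BL/6 background. There were 2 libraries, 1 per genotype, and mice of both genotypes carried the alleles R26-CAG-LSL-RSR-tdTomato-2A-DTR and p16-CreERT2 and received CCl4 for 4 weeks, tamoxifen and diphtheria toxin. Only p16-Alb-LRTD mice also carried Alb-DreERT2, a recombinase driven by the albumin promoter, so that p16-expressing hepatocytes became toxin-sensitive there, while p16-LRTD mice were the control genotype. The age of the mice and the number pooled into a library are not given in the sources used here, so every difference below is one between 2 libraries with no replicate check, and intervals (95%) cover counting error only.

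Guidance cues were first described as signals that steer growing axons, and they are used again by vessels and migrating mesenchymal cells. Slit proteins are secreted ligands of Robo receptors. Ephrins such as ephrin-A1 (Efna1) are tethered to the membrane and signal to Eph receptors on the neighbouring cell, while semaphorins signal through plexins, often with a neuropilin as co-receptor. Neuropilin 1 (Nrp1) also binds vascular endothelial growth factor and is a known gene of the sinusoidal endothelium, and Robo2 and Slit2 have been studied in HSC activation.

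The libraries held 9004 (p16-LRTD) and 7416 (p16-Alb-LRTD) cells after filters, with median depths of 17177 and 18273 UMIs per cell, and 95 barcode sequences occurred in both. Stellate cells (at least 15 UMIs of Lrat, Ecm1, Hgf and Reln per 10000) numbered 7852 and 6621, endothelial cells (at least 8 of Kdr, Stab2 and Ptprb) 430 and 283, and Kupffer cells (at least 8 of Clec4f, Cd5l, Vsig4 and Csf1r) 283 and 178. Another 245 and 221 cells passed several gates and 194 and 113 passed none. Markers that the gates did not use fitted the labels: the stellate list (Des, Dcn, Colec11, Pdgfrb and Ngfr) summed to 22411 and 25485 CPM (UMIs per 1000000) in stellate cells against at most 392 in endothelial and Kupffer cells. The endothelial list summed to 4624 and 4136 CPM in endothelial cells and at most 34.2 in stellate cells, and the Kupffer list to 5666 and 7457 CPM in Kupffer cells and at most 47.8 in the other gated cells. In Kupffer cells the endothelial list was at 449 and 664 CPM, most of it Cdh5 at 361 and 530 CPM.

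Sequences upstream of RefSeq starts are shown for 3 receptor genes of stellate cells, Robo2 and Nrp1 because they had the largest decrease there among members with at least 5 CPM and Epha3 because it was, like Robo2, highest in sub-clusters 1 and 4 of the stellate cells. Robo1, Epha4 and Plxna4 were highest in those sub-clusters too, so this trait does not single out Epha3. Each run is the 250 bases before a RefSeq start (GRCm38.p6), 5′ to 3′ on the strand of the gene, and none of its bases lay in an annotated exon. Robo2 (minus strand, chr16:74411826-74412075) has 3 RefSeq starts, of which the one beside the GENCODE gene start is shown. The others are Epha3 (minus strand, chr16:63864176-63864425) and Nrp1 (plus strand, chr8:128358823-128359072), whose run lies inside the GENCODE gene span, after the annotated gene start at 128358604.
Robo2: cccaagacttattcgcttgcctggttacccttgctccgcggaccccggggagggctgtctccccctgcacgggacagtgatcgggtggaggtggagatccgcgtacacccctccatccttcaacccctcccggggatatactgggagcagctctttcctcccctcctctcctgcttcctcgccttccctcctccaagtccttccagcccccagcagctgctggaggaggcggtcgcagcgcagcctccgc
Epha3: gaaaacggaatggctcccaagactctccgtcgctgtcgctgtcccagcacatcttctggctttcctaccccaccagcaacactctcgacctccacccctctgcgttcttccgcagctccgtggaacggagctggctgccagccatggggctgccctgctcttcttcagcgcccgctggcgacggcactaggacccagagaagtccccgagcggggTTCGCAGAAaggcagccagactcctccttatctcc
Nrp1: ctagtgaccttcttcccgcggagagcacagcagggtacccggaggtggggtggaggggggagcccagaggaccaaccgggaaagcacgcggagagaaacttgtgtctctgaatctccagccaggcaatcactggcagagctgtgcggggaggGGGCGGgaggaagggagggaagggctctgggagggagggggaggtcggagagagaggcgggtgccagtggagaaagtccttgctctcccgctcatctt
Capitals mark matches, on either strand, to the 4 motifs searched. The STAT motif (TTCNNNGAA) occurred 1 time in the Epha3 run and was held by 7.02% of 32851 RefSeq windows of the same length, and the GC box (GGGCGG) occurred 1 time in the Nrp1 run against 32.7% of windows. Of the 11 windows of the members, no other had a STAT match. The AP-1 motif (TGANTCA) and the TATA box (TATAAA), held by 6.75% and 12.4% of windows, had no match in these runs, and the Robo2 run had no match to any motif. UMIs were counted at the 3′ end, so the data do not say which start a transcript came from.

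Most UMIs of the 6 receptor genes lay in stellate cells, and most UMIs of the 4 ligand genes did not. Of all Robo2 UMIs in filtered cells, 97.6% in p16-LRTD and 97.1% in p16-Alb-LRTD lay in stellate cells, which were 87.2% and 89.3% of the cells. The corresponding shares were 97.0% and 96.7% for Epha3 and 95.003% and 95.9% for Epha4, and 91.8% and 91.6% for Robo1. Plxna4, at 81.8% and 85.6%, and Nrp1, at 71.6% and 72.9%, lay below the stellate share of cells. The ligand genes lay elsewhere. Endothelial cells, 4.78% and 3.82% of the cells, held 65.9% and 57.0% of Sema6a UMIs and 74.8% and 51.1% of Efna1 UMIs. For Slit3, 74.9% and 67.7% of UMIs came from the cells that passed no gate, which were 2.15% and 1.52% of the cells.

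**Figure D1:**
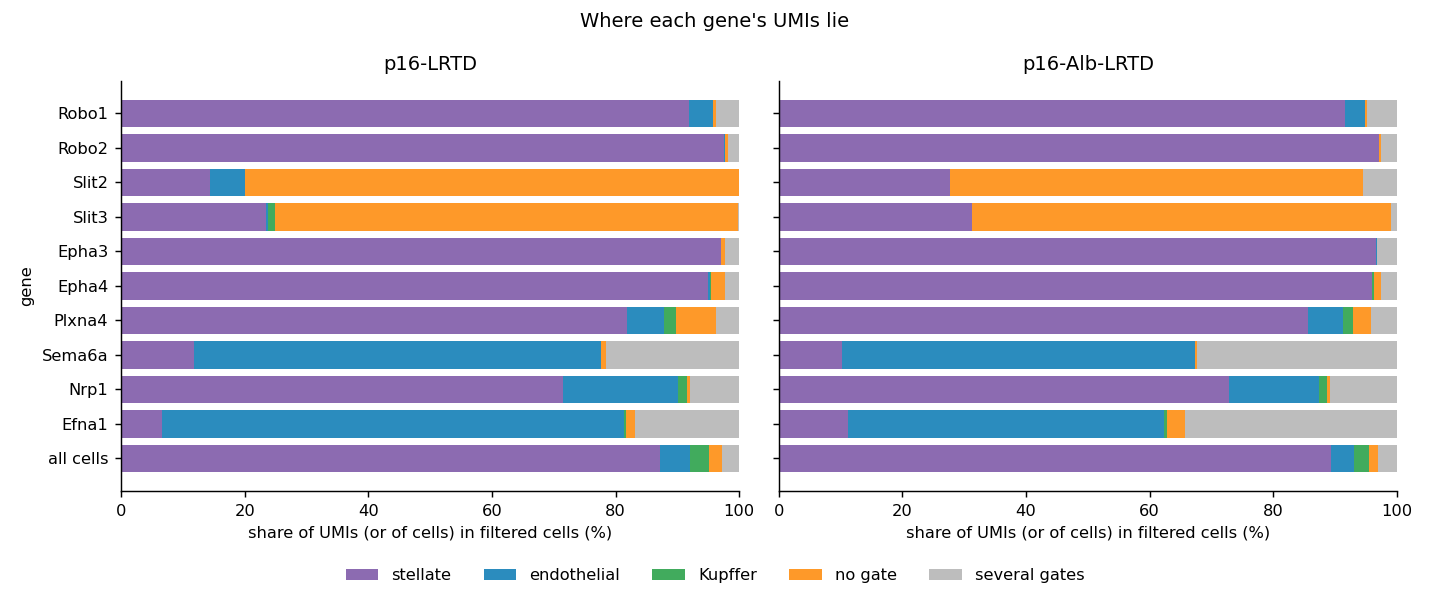
Share (%, x axis) of each gene's UMIs that lay in stellate, endothelial, Kupffer, no-gate and several-gate cells of each library, with the share of all filtered cells in the bottom bar. Robo1, Robo2, Epha3, Epha4, Plxna4 and Nrp1 were mostly stellate UMIs, Sema6a and Efna1 mostly endothelial, and Slit2 and Slit3 mostly from cells past no gate.

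Among the receptors, Robo2, a receptor for Slit ligands (chromosome 16, 73891839 to 74411825, minus strand, GRCm38), was at 1279 CPM (1273 to 1285) in stellate cells of p16-LRTD against 818 CPM (813 to 823) for p16-Alb-LRTD, and it was found in 7655 and 6484 of these cells. Its log2 ratio, p16-Alb-LRTD over p16-LRTD, was -0.65 (-0.66 to -0.63), or 1.56-fold lower, and it stayed below 0 under every alternative run but fell short of 1.5-fold, at -0.48, when each cell was weighted equally. Robo1, the paralog on the same chromosome (72308306 to 73046095, plus strand), was at 234 and 230 CPM, with a log2 ratio of -0.02 (-0.04 to 0.00), so that the libraries were not separated beyond counting error. Robo1 was also an endothelial transcript, at 230 CPM (218 to 242) and 255 CPM (240 to 271) in the endothelial cells of the same libraries, a log2 ratio of 0.15 (0.03 to 0.27). In Kupffer cells Robo1 was at 2.52 and 1.34 CPM, from 15 and 6 UMIs.

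Robo2 in the other gated cells was at or below the share of its stellate level that most stellate markers had there. In endothelial cells it was at 17.4 and 8.79 CPM, which is 1.36% and 1.07% of its stellate level, while the 5 stellate markers lay between 1.64% and 2.98% of theirs in p16-LRTD and between 0.808% and 1.52% in p16-Alb-LRTD. In Kupffer cells Robo2 was at 7.57 and 4.92 CPM, 0.592% and 0.602% of its stellate level, with the markers between 1.08% and 3.67% and between 0.180% and 1.94%. The endothelial log2 ratio of -0.98 (-1.58 to -0.42) rested on 107 and 35 UMIs, of which 59 came from 1 cell of p16-LRTD. Without the cell with the most Robo2 UMIs in each library it was -0.15, and it was above 0 (0.25) when cells past several gates were kept. The part of stellate RNA in these low values was not tested, and no difference is read from them.

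The Eph receptors Epha3 and Epha4 bind ephrin-A ligands and were stellate transcripts in both libraries. Epha3 (chromosome 16, 63543534 to 63864175, minus strand) was at 294 CPM (291 to 297) and 274 CPM (271 to 277), with a log2 ratio of -0.10 (-0.12 to -0.08). Epha4 (chromosome 1, 77367185 to 77515088, minus strand) was at 40.4 and 48.8 CPM, from 5760 and 6101 UMIs, a log2 ratio of 0.27 (0.22 to 0.32). The Epha4 interval thus lay above 0 and below the 1.5-fold limit, and the Epha3 interval lay just under 0. After thinning every cell to 5000 UMIs, Epha3 was seen in 60.6% (59.6% to 61.7%) and 62.8% (61.6% to 64.0%) of stellate cells and Epha4 in 14.5% (13.7% to 15.3%) and 18.4% (17.4% to 19.3%). Unthinned, these shares were 86.2% and 88.1% for Epha3 and 34.3% and 41.1% for Epha4. In thinned Kupffer cells, which gave the background, Epha3 was seen in 4 of 278 and 0 of 177 cells and Epha4 in 0 of 278 and 2 of 177, at median depths before thinning of 19514 and 25102 UMIs against 17025 and 18136 in stellate cells.

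Plxna4, a plexin that receives class 3 and class 6 semaphorins (chromosome 6, 32144268 to 32588192, minus strand), was the member that was most evenly spread over the gates. It was at 83.6 CPM (82.1 to 85.1) and 99.6 CPM (97.8 to 101.3) in stellate cells, at 143 CPM (134 to 153) and 211 CPM (197 to 226) in endothelial cells and at 47.3 CPM (41.9 to 53.1) and 51.2 CPM (44.8 to 58.3) in Kupffer cells. The order endothelial, stellate, Kupffer held in both libraries with no overlap of the intervals. The log2 ratios of the libraries were 0.25 (0.22 to 0.29), 0.56 (0.42 to 0.70) and 0.12 (-0.14 to 0.37). The Kupffer interval crossed 0, and the endothelial value was 0.19 when cells past several gates were kept but passed 1.5-fold under TMM (0.64) and median-of-ratios (0.66) scaling and in cells with 10000 to 30000 UMIs (0.61). The stellate value ran from 0.18 with equal sub-cluster shares to 0.45 as a mean of per-cell CPM. Plxna4 was seen in 13.6% (12.9% to 14.4%) and 21.1% (20.1% to 22.1%) of thinned stellate cells, 22.5% and 33.9% unthinned.

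Nrp1 (chromosome 8, 128358604 to 128503363, plus strand) was lower in p16-Alb-LRTD in all 3 cell types, and no interval reached 0. It was at 318 CPM (315 to 321) and 225 CPM (223 to 228) in stellate cells, a log2 ratio of -0.50 (-0.52 to -0.48). In endothelial cells it was at 1912 CPM (1877 to 1946) and 1410 CPM (1374 to 1448), a log2 ratio of -0.44 (-0.49 to -0.39). In Kupffer cells it was at 149 CPM (139 to 159) and 121 CPM (111 to 131), a log2 ratio of -0.30 (-0.46 to -0.14). Its Kupffer level was 7.78% and 8.56% of the endothelial level, whereas the endothelial genes Clec4g and Oit3 were at no more than 0.220% of theirs in Kupffer cells and Lyve1 at 2.04% and 0.869%, while Pecam1 was at 10.1% and 19.0% and Cdh5 at 36.9% and 57.7%. None of these ratios passed 1.5-fold, although the endothelial value did (-0.65) with cells past several gates kept, and the Kupffer value was -0.15 in cells without a UMI of Mki67 or Top2a. The share of thinned stellate cells with an Nrp1 UMI was 71.5% (70.5% to 72.5%) and 60.6% (59.4% to 61.7%), and the unthinned shares were 95.1% and 89.8%. In endothelial cells almost every thinned cell had one, 98.3% and 97.9%, and the mean was 10.2 and 6.92 UMIs per cell.

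**Figure D2:**
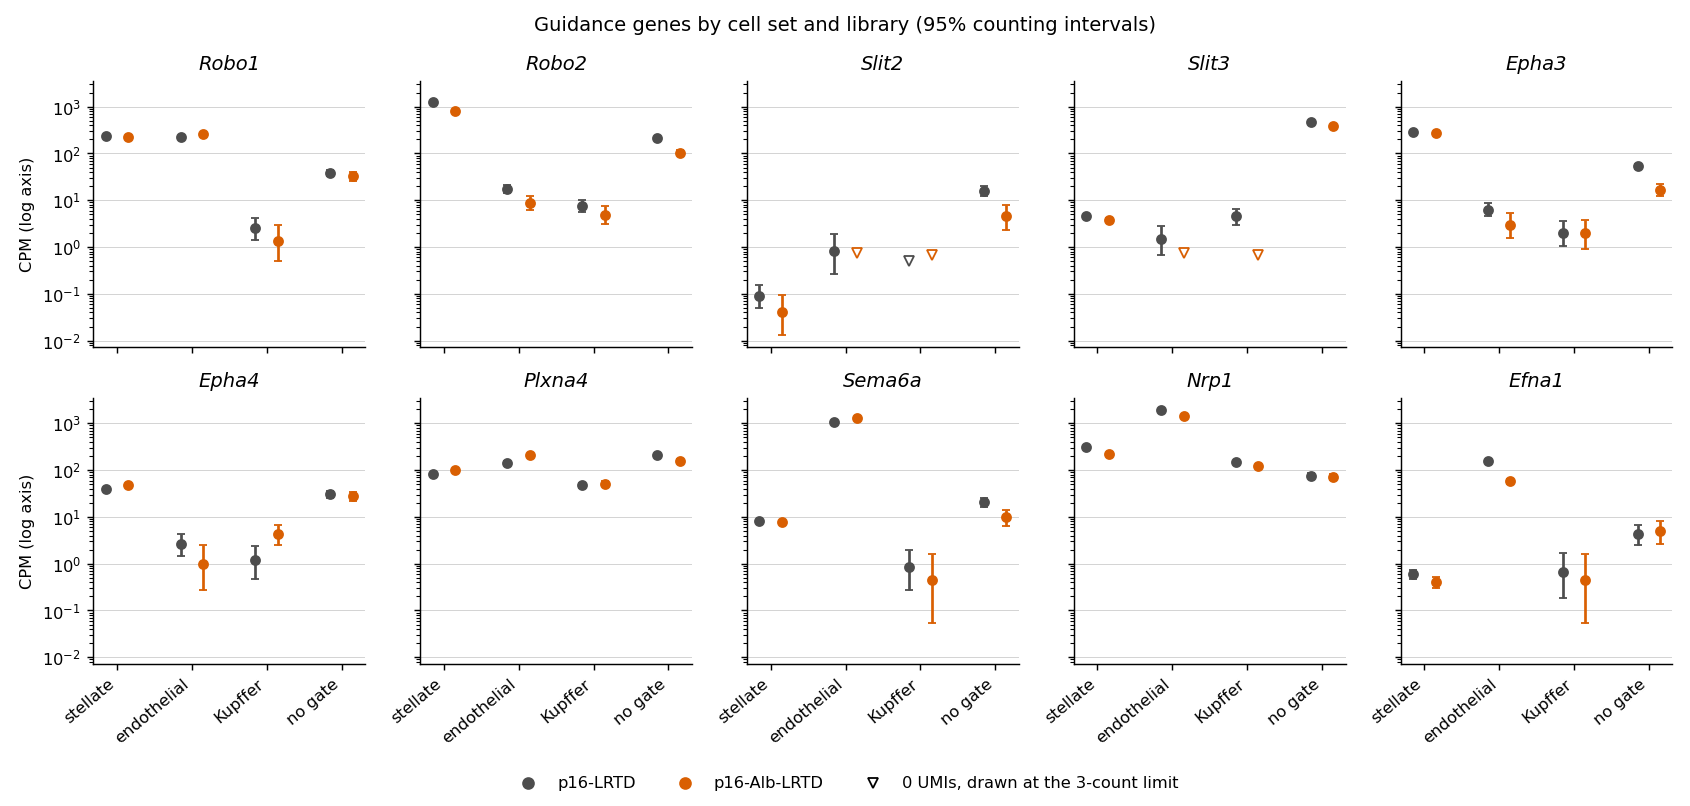
CPM on a log axis for each of the 10 genes in the stellate, endothelial, Kupffer and no-gate cells of p16-LRTD (grey) and p16-Alb-LRTD (orange), with 95% Poisson intervals and open triangles at the limit of 3 counts where no UMI was found. Robo2 and Nrp1 sat lower in p16-Alb-LRTD stellate cells, Efna1 lower in p16-Alb-LRTD endothelial cells, and Slit3 was highest in cells past no gate.

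Sema6a encodes a membrane-bound semaphorin (chromosome 18, 47235598 to 47368870, minus strand). In endothelial cells it was at 1079 CPM (1053 to 1105) and 1320 CPM (1285 to 1356), a log2 ratio of 0.29 (0.24 to 0.34). In stellate cells it was at 8.28 and 7.60 CPM, a log2 ratio of -0.12 (-0.25 to 0.00). Cells past several gates held 21.5% and 32.4% of its UMIs, and with those cells kept the endothelial value was 0.02 and the stellate value turned to 0.41. The 5 endothelial list genes were found in stellate cells too, from 0.729 CPM to 28.5 CPM (Clec4g) in p16-LRTD and from 0.599 CPM to 14.96 CPM (Clec4g) in p16-Alb-LRTD, against at least 619 CPM in endothelial cells, and their part in the stellate Sema6a level was not tested. In Kupffer cells Sema6a had 5 and 2 UMIs.

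In the 3 gated cell types, Efna1 had the largest ratio of any member with a mean of at least 5 CPM. It encodes ephrin-A1, a ligand of EphA receptors (chromosome 3, 89271733 to 89281142, minus strand). Endothelial cells held 951 UMIs in p16-LRTD, 154.5 CPM (144.9 to 164.7), but 228 UMIs in p16-Alb-LRTD, 57.2 CPM (50.1 to 65.2). The log2 ratio was -1.43 (-1.65 to -1.22), or 2.70-fold lower, and no cell held more than 28 of the UMIs. Efna1 was seen in 45.2% (40.4% to 50.1%) and 21.6% (16.9% to 26.8%) of thinned endothelial cells, 70.0% and 47.3% unthinned, at median depths of 11781 and 11992 UMIs. In thinned stellate and Kupffer cells at most 1.13% of cells had a UMI. Endothelial cells of the libraries also differed in Lyve1, a marker of sinusoidal endothelium, at 1111 and 669 CPM, and in the dividing-cell genes Mki67 and Top2a, which summed to 28.6 and 2.26 CPM. Cd34 was at 38.02 and 19.6 CPM and the smooth muscle list at 33.3 and 5.52 CPM, most of it Tagln, while Pecam1 was at 619 and 660 CPM and Clec4g at 1225 and 1268 CPM. In cells without a UMI of Mki67 or Top2a the Efna1 log2 ratio was -1.51, and the part of the other differences was not tested.

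Counted over the members, 7 of 10 reached a mean of 5 CPM in stellate cells. None was at least 1.5-fold higher and 1, Robo2, was at least 1.5-fold lower in p16-Alb-LRTD, where 3.03% and 3.05% of all 10179 genes at that level were higher and lower. In endothelial cells 6 of 10 reached the minimum, none was higher, and Efna1 and Robo2 were lower, against 6.44% and 13.5% of 9858 genes. In Kupffer cells 3 of 10 reached it, none was higher and Robo2 alone was lower, against 5.21% and 6.83% of 9514 genes. The counts are too small to read against these shares, and the endothelial and Kupffer calls on Robo2 rested on at most 107 UMIs in a library. The Kupffer call on Robo2 was lost under TMM scaling. The median log2 ratio of the members that reached 5 CPM was -0.10 in stellate, -0.14 in endothelial and -0.30 in Kupffer cells, beside -0.05, -0.10 and -0.06 over all genes. TMM scaling moved every ratio by 0.04, 0.08 and 0.05 in these cell types.

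Slit2 and Slit3 were low in the gated cells. Slit2 (chromosome 5, 47983138 to 48307733, plus strand) had 13 and 5 UMIs in stellate cells, 0.0911 CPM (0.0485 to 0.156) and 0.0400 CPM (0.0130 to 0.0933), 5 and 0 UMIs in endothelial cells and none in Kupffer cells, where 3 counts would be 0.505 and 0.671 CPM. Slit3 (chromosome 11, 35121224 to 35708507, plus strand) was at 4.53 CPM (4.19 to 4.89) and 3.79 CPM (3.46 to 4.15) in stellate cells, a log2 ratio of -0.26 (-0.43 to -0.08), and was found in 321 and 215 of the stellate cells. Endothelial cells held 9 and 0 Slit3 UMIs. Of the 27 Slit3 UMIs in p16-LRTD Kupffer cells, 25 came from 1 cell, and p16-Alb-LRTD Kupffer cells held none.

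Slit3 was instead concentrated in the cells that passed no gate, at 461 CPM (441 to 481) and 385 CPM (362 to 409) in the libraries, with UMIs in 83 of 194 and 34 of 113 cells. This set of cells was mixed and is given no type. Its stellate list, mostly Dcn, summed to 6467 and 5213 CPM, its mesothelial list (Wt1, Msln and Upk3b) to 554 and 348 CPM, its portal fibroblast list (Dpt, Cd34, Thy1 and Pi16) to 349 and 205 CPM and its hepatocyte list to 1088 and 433 CPM. Slit3 was found in cells with genes of several of these lists, but not in the 7 and 7 cells with at least 5 UMIs of the hepatocyte list. Cells with at least 5 UMIs of the mesothelial list numbered 103 and 39, and they held 2045 of 2058 and 1019 of 1026 of the Slit3 UMIs, at 779 and 843 CPM. All 72 and 12 Slit2 UMIs lay in those cells too, although 43 of the 72 came from 1 cell. Cells with at least 5 UMIs of the portal fibroblast list, 95 and 34, held 1637 and 483 of the Slit3 UMIs, at 670 and 497 CPM. Most of the mesothelial sum was Wt1 (444 and 244 CPM), which is found in stellate sub-cluster 4 as well. Cells with at least 5 UMIs of the Kupffer list, 49 and 28, held 12 and 0 Slit3 UMIs. Every Slit3 UMI lay in cells that also had at least 5 UMIs of the stellate list (149 and 77 cells). These subsets overlap and were chosen after the values had been seen.

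Across the stellate sub-clusters compared, Robo1, Robo2, Epha3, Epha4 and Plxna4 were highest in sub-clusters 1 and 4 of both libraries, and Nrp1 in sub-cluster 2. Clustering without the guidance genes gave 9 sub-clusters, of which 5 held at least 100 cells of each library. They are named by number, and their leading genes were Galnt14 and Disp2 for sub-cluster 0, Grid1 and Inmt for 1, Notch3 and Clstn2 for 2, Spon2 and Htra3 for 3 and Wt1 and Pex5l for 4. They held 37.0%, 23.7%, 20.1%, 9.13% and 6.58% of the p16-LRTD and 39.9%, 30.01%, 11.2%, 8.26% and 8.13% of the p16-Alb-LRTD stellate cells. Sub-cluster 5, led by dividing-cell genes, held 201 and 20 cells and was not compared.

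Robo2 was highest in sub-clusters 1 and 4, and the libraries differed most there. In sub-cluster 1 it was at 2359 and 1180 CPM, a log2 ratio of -0.999 (-1.02 to -0.98), and in sub-cluster 4 at 2352 and 1192 CPM, -0.98 (-1.01 to -0.95). In sub-cluster 3 it was at 572 and 427 CPM, -0.42 (-0.48 to -0.36). Sub-clusters 0 and 2 were at 725 and 635 CPM and at 455 and 399 CPM, both with a log2 ratio of -0.19 and intervals of -0.21 to -0.17 and -0.24 to -0.14. All 5 values were below 0, but those of sub-clusters 1 and 4 were about 2-fold and those of 0 and 2 were small. Col1a1, which encodes a chain of type I collagen, is given beside these values. It was at 2967 and 629 CPM in sub-cluster 1, at 7933 and 2036 in sub-cluster 4, at 3225 and 628 in sub-cluster 3, at 365 and 171 in sub-cluster 0 and at 133 and 137 in sub-cluster 2.

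Robo2 varied widely between stellate cells of both libraries. Thinned to 5000 UMIs, the median was 3 UMIs per stellate cell in both libraries, but it was 10 and 5 in sub-cluster 1 and 9 and 5 in sub-cluster 4. The share of cells with at least 1 was 89.0% (88.3% to 89.7%) and 87.4% (86.6% to 88.2%), or 97.5% and 97.9% unthinned. Thinned cells without a Robo2 UMI were more frequent in p16-Alb-LRTD in each sub-cluster, from 0.645% and 4.44% in sub-cluster 1 to 21.5% and 29.9% in sub-cluster 2. The 90th percentile was 13 and 9 UMIs and the 99th 29.7 and 17. Cells with 10 or more Robo2 UMIs were 18.3% (17.4% to 19.1%) of the p16-LRTD but 8.45% (7.79% to 9.15%) of the p16-Alb-LRTD stellate cells. In sub-cluster 1 they were 51.0% (48.7% to 53.3%) and 16.9% (15.3% to 18.6%), and in sub-cluster 4 48.6% (44.3% to 53.1%) and 15.3% (12.3% to 18.6%). In sub-cluster 0 they were 4.89% and 4.05%, in 2 they were 1.21% and 1.76% and in 3 they were 2.79% and 0.914%. The mean per stellate cell was 5.56 and 3.99 UMIs, with an SD over cells of 6.28 and 3.86.

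**Figure D3:**
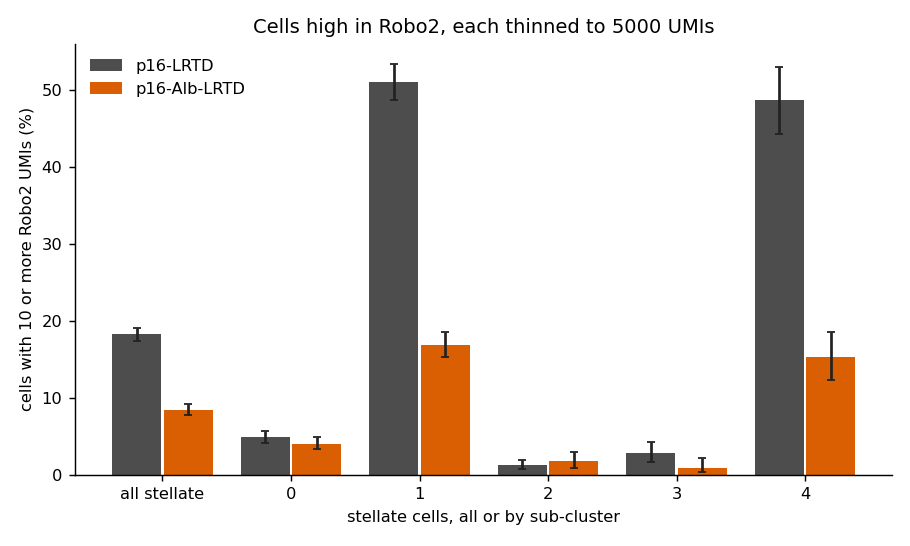
Share of stellate cells with 10 or more Robo2 UMIs after thinning to 5000 UMIs (y axis, %), for all stellate cells and for sub-clusters 0 to 4 (x axis), with Clopper-Pearson intervals. In sub-clusters 1 and 4 the p16-LRTD bars stand near 50% and the p16-Alb-LRTD bars near 16%, and in sub-clusters 0, 2 and 3 the intervals overlap.

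Nrp1 was highest in sub-cluster 2 and lower in p16-Alb-LRTD in all 5 sub-clusters. It was at 490 and 354 CPM in sub-cluster 2, at 363 and 248 in 0, at 244 and 177 in 1, at 232 and 199 in 3 and at 207 and 176 in 4. The log2 ratios ran from -0.55 (-0.58 to -0.52) in sub-cluster 0 to -0.22 (-0.31 to -0.13) in sub-cluster 3. Across the 10 profiles, 5 sub-clusters in each of 2 libraries, Pearson r of Nrp1 was -0.90 with Epha4, -0.76 with Plxna4, -0.49 with Robo2, -0.31 with Epha3 and -0.0062 with Robo1, as a description of profiles that share cells, depth and library.

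The Epha3 ratio changed sign between sub-clusters, which its pooled ratio did not show. It was at 440 and 340 CPM in sub-cluster 1 and at 463 and 308 in sub-cluster 4, log2 ratios of -0.37 (-0.41 to -0.34) and -0.59 (-0.65 to -0.52). It was at 224 and 248 CPM in sub-cluster 0 and at 211 and 265 in sub-cluster 2, log2 ratios of 0.15 (0.11 to 0.19) and 0.33 (0.26 to 0.39). In sub-cluster 3 it was at 183 and 163 CPM, -0.17 (-0.27 to -0.07). Epha3 and Robo2 had the highest positive r among pairs of the 6 receptors (r = 0.90 over the 10 profiles), and both had their lowest ratios in sub-clusters 1 and 4.

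Epha4 was also highest in sub-clusters 1 and 4, at 74.4 and 80.7 CPM and at 65.3 and 71.7 CPM, but its log2 ratio was above 0 in all 5, from 0.12 (0.04 to 0.19) in sub-cluster 1 to 0.52 (0.41 to 0.62) in sub-cluster 0, and in 3 of them the interval crossed 0. Plxna4 was the member with the widest range over sub-clusters. It was at 665 and 636 CPM in sub-cluster 4, at 87.7 and 119.7 in sub-cluster 1, at 24.1 and 27.5 in sub-cluster 3 and at no more than 15.01 in sub-clusters 0 and 2. Its log2 ratio was 1.19 (1.01 to 1.38) in sub-cluster 0 (6.57 and 15.01 CPM), 0.45 (0.39 to 0.51) in sub-cluster 1 and -0.06 (-0.11 to -0.02) in sub-cluster 4. Wt1, which led sub-cluster 4, is also in the mesothelial list. Robo1 was highest in sub-cluster 4, at 316 and 358 CPM, and lowest in sub-cluster 3, at 90.03 and 94.2 CPM, with log2 ratios between -0.28 (-0.35 to -0.21) in sub-cluster 2 and 0.18 (0.12 to 0.25) in sub-cluster 4. Sema6a stayed between 4.77 and 17.3 CPM in every sub-cluster and library.

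**Figure D4:**
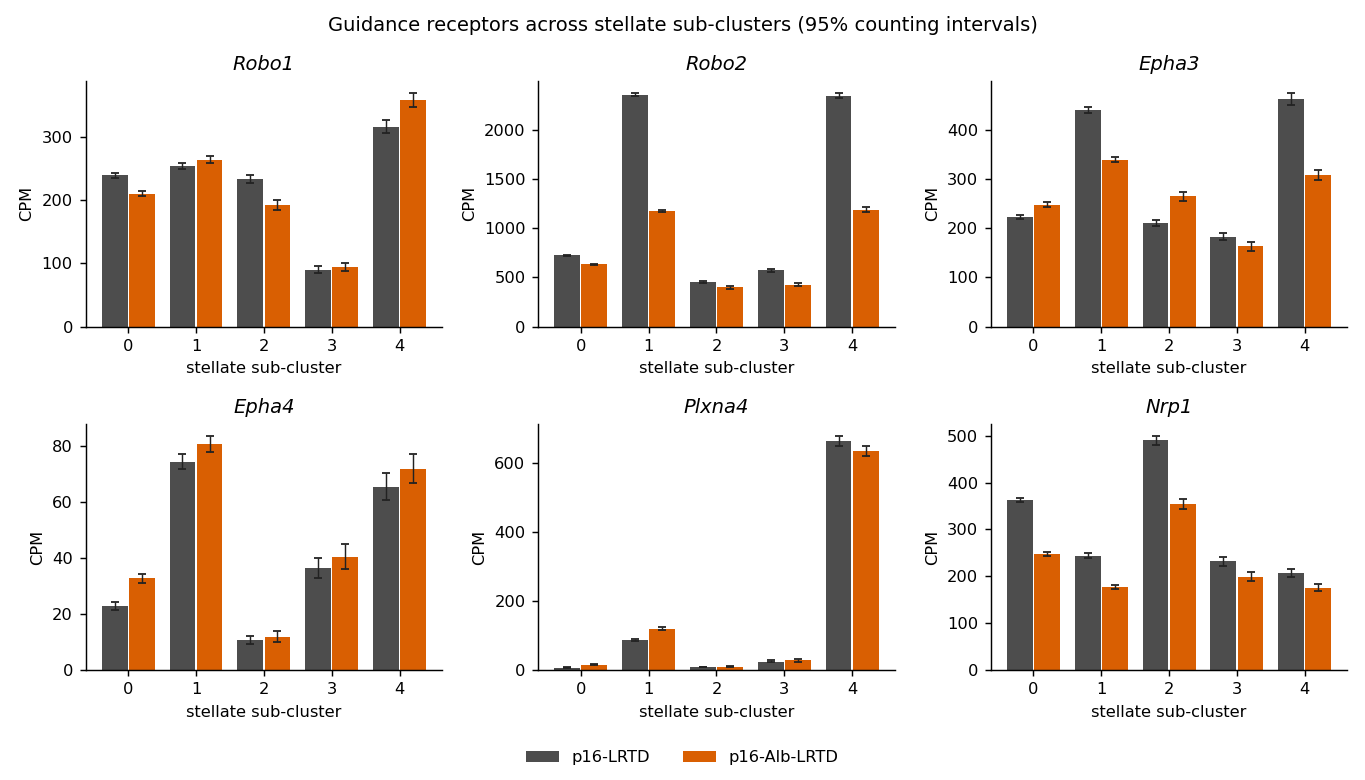
CPM (y axis) of 6 receptor genes in stellate sub-clusters 0 to 4 (x axis) of p16-LRTD (grey) and p16-Alb-LRTD (orange), with 95% Poisson intervals. Robo2 in sub-clusters 1 and 4 was about 2-fold lower in p16-Alb-LRTD, Nrp1 was lower in all 5, and Plxna4 stood out in sub-cluster 4 of both libraries.

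By profile over these 10 points, the genes most like each member were Sash1 (r = 0.97), Rab30 (0.96) and Kcnt2 (0.96) for Robo2, Xrcc4, Prickle2 and Sclt1 (each 0.99) for Robo1, and Kdm5b (0.98), Golgb1 (0.94) and Mdfic (0.93) for Epha3. For Epha4 they were Grid1 (0.995), Sdk2 (0.98) and Ano1 (0.98), for Plxna4 Sned1, Alcam and Svep1 (each 0.98), and for Nrp1 Adra1b, Myh11 and Clstn2 (each 0.98). These were the top 3 of 6596 candidate genes by construction and carry no test.

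In the wider guidance list of 83 genes, 46 reached 5 CPM in stellate cells, 2 of them at least 1.5-fold higher and 5 at least 1.5-fold lower in p16-Alb-LRTD, where 3.03% and 3.05% of all genes were. The list had a median log2 ratio of -0.07, beside -0.05 over all genes. Both higher genes were Eph receptors. Ephb2, a receptor of ephrin-B ligands, was at 9.43 CPM (8.93 to 9.95) and 18.3 CPM (17.5 to 19.0), a log2 ratio of 0.95, and Epha2, a receptor of ephrin-A1, was at 24.3 CPM (23.5 to 25.1) and 37.5 CPM (36.5 to 38.6), a log2 ratio of 0.63. Both were above 0 in each of the 5 sub-clusters, Ephb2 from 0.56 to 1.03 and Epha2 from 0.43 to 1.05. The 2 genes were picked by their ratio over these same cells, so the shared sign is no separate support.

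Besides Robo2, the lower genes were Srgap1, Efnb1, Dpysl3 and Plxnd1. Srgap1, a GTPase-activating protein that acts downstream of Robo receptors, was at 8.11 CPM (7.65 to 8.59) and 4.196 CPM (3.84 to 4.57), a log2 ratio of -0.95. Efnb1, the ephrin-B1 ligand, was at 87.9 CPM (86.4 to 89.5) and 51.3 CPM (50.01 to 52.5), a log2 ratio of -0.78, and was below 0 in all 5 sub-clusters, from -1.01 to -0.53. Efnb1 too was picked by its ratio over these same cells. Plxnd1, the receptor of semaphorin 3E, was at 58.1 and 38.2 CPM, -0.60. Dpysl3, a cytoskeletal mediator of semaphorin signals, was at 7.96 and 4.90 CPM, -0.70. This pooled Dpysl3 decrease was not shared by every sub-cluster. Sub-clusters 1, 3 and 4 gave log2 ratios of -1.25, -1.53 and -0.56. Sub-cluster 0 gave 0.29, with an interval that crossed 0 (-0.19 to 0.77). Sub-cluster 2 gave 1.73 (0.33 to 3.28), from only 7 and 14 UMIs. By role, 1 of 2 Robo receptors, 1 of 3 ephrins, 1 of 7 plexins and 2 of 10 mediators at that level were at least 1.5-fold lower. Of 7 Eph receptors 2 were at least 1.5-fold higher, and none of the 9 semaphorins or of the 7 netrins and netrin receptors passed 1.5-fold. These counts are too small to read against the 3.03% and 3.05% of all genes that were higher and lower. Mki67 and Top2a summed to 39.1 and 5.62 CPM and the smooth muscle list, mostly Tagln, to 771 and 509 CPM in the same stellate cells, and the portal fibroblast list, mostly Dpt, to 72.5 and 35.0 CPM. In stellate cells without a UMI of Mki67 or Top2a the Robo2 log2 ratio was -0.63 and that of Nrp1 was -0.52, and the part of the smooth muscle and portal fibroblast lists was not tested.

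In endothelial cells 42 genes of the wider list reached 5 CPM, 3 of them higher and 5 lower, about the 6.44% and 13.5% of all genes. Plxnc1, the receptor of semaphorin 7A, was at 784 CPM (762 to 806) and 1468 CPM (1430 to 1506), a log2 ratio of 0.90, and Sema3d, a secreted semaphorin, at 35.4 CPM (30.9 to 40.4) and 69.3 CPM (61.4 to 78.0), 0.97. The third, Srgap3, rested on 20 and 36 UMIs, of which 32 came from 1 cell. Epha2 was at 57.0 CPM (51.2 to 63.3) and 24.4 CPM (19.7 to 29.7), a log2 ratio of -1.23 (-1.57 to -0.90), which is the opposite sign to its stellate ratio. The gene of its ligand, Efna1, was also lower in endothelial cells. Sema6d, a transmembrane semaphorin, was at 253 and 142 CPM, -0.84, and Mical1, an enzyme that acts on actin, at 6.82 and 3.26 CPM, -1.06. The endothelial genes Robo4, Ephb4 and Efnb2 had log2 ratios of -0.13, 0.04 and -0.15.

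In Kupffer cells 29 genes of the list reached 5 CPM, none was higher and 8 were lower, where 5.21% and 6.83% of all genes were higher and lower. Sema4d, a semaphorin of immune cells, was at 32.0 CPM (27.6 to 36.8) and 17.0 CPM (13.4 to 21.3), a log2 ratio of -0.91, and Nrp2 at 44.2 CPM (39.1 to 49.9) and 24.6 CPM (20.2 to 29.6), -0.85. Mical1 was at 14.8 and 6.04 CPM, -1.29, and Dpysl3, Mical3 and Plxnc1 had log2 ratios of -0.95, -0.78 and -0.76, with at most 83 UMIs in a library. Robo2 and Srgap3 were the other 2, with intervals that crossed 0. Slit1, at 30.6 CPM in both libraries, was the Slit gene that reached the minimum in Kupffer cells. Genes of the Kupffer list differed between the libraries in the same cells, but not all in 1 direction. Marco was at 508 and 1461 CPM, Timd4 at 195 and 297, C1qa at 3317 and 4058 and Adgre1 at 1060 and 1189. Cd68 was at 587 and 452 CPM. Pecam1 at 62.7 and 125 CPM and Lyve1 at 22.7 and 5.81 CPM differed too, and the part of all these genes in the guidance values was not tested.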

How the data were processed

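The authors deposited UMI counts per gene and barcode from 10x Genomics 3′ libraries, made with Cell Ranger 7.0.1 and mm10. Whether intronic reads were counted is not given in the sources used here, and exons are at most 19.4% of each member's span. Of 31054 features, 30934 matched GENCODE vM21. All later steps were computed from the deposited counts. Barcodes with over 5% mitochondrial UMIs, under 2000 or over 7000 genes, or over 50000 UMIs were left out, after the study's methods. No doublet caller was run, and cells past several gates were left out. UMIs were summed per library and gate and scaled to CPM, a range of 3983226 to 142651137 UMIs per sum. Intervals are exact Poisson, conditional binomial for ratios and Clopper-Pearson for shares. No test between genotypes could be run on 1 library each. A gene counted as higher or lower with a mean of at least 5 CPM and a 1.5-fold ratio. From the wider list, up to 6 genes per cell type and direction with the largest ratios were named, with Robo4, Ephb4, Efnb2, Slit1 and, in Kupffer cells, Srgap3 added after their values were seen. Likeness is Pearson r of log2(CPM + 1), over genes with at least 20 CPM. Thinning drew 5000 UMIs per cell without replacement, leaving out 16 and 7 stellate, 12 and 0 endothelial and 5 and 1 Kupffer cells. Sub-clusters came from Seurat 5.3.0 (reciprocal PCA, 2000 variable genes without the guidance genes, 30 dimensions, Louvain resolution 0.3). TMM used edgeR 4.0.16. The ratio intervals were tested on simulated data. The members and lists were chosen with earlier results of these data known. Of the wider list, 83 of 84 names were in the files. Of the members, 8 of 10 had a RefSeq window. 1 gene of the planned stellate marker list is not reported here.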

Additional observations from a re-analysis of the deposited data

Results flagged for a closer look

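Slit2 and Slit3 gave signal outside the 3 gated cell types. In cells that passed no gate, which enter no comparison between the libraries, Slit3 was at 461 CPM (p16-LRTD) and 385 CPM (p16-Alb-LRTD), and Slit2 at 16.1 CPM and 4.50 CPM, all above the limit of 3 counts (0.671 and 1.13 CPM in these cells). The sets held 194 and 113 cells, and 43 of the 72 Slit2 UMIs of p16-LRTD came from 1 cell. Differences between cell types and between libraries were not tested.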

How the results depend on the processing

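No paired analysis was possible because a genotype came as 1 library only. Of the ratios of members at 5 CPM or more, 143 of 183 alternative values moved by less than the counting interval. Of the ratios past 1.5-fold, that of Robo2 in endothelial cells changed sign, to 0.25 with cells past several gates kept and 0.024 in cells with 10000 to 30000 UMIs. The Robo2 ratio in stellate cells ran from -0.68 without a cell filter to -0.48 as a mean of per-cell CPM, Nrp1 in stellate cells from -0.57 to -0.45 and Efna1 in endothelial cells from -1.60 to -1.32. In stellate cells 0 members were lower by a mean of per-cell CPM or a 2-fold limit and 2 with no minimum. In endothelial cells 1 was higher with no cell filter, either scaling (TMM or median of ratios) or cells of 10000 to 30000 UMIs, and 2 with cells past several gates kept. There 1 was lower with gates divided by 1.5, a mean of per-cell CPM, the same depth range, a 2-fold limit or without the cell with the most UMIs (added after seeing the data), 4 with a minimum of 1 CPM and 6 with none. In Kupffer cells 1 was higher with cells past several gates kept, a minimum of 1 CPM or none, and 0 were lower with no cell filter, gates divided by 1.5, either scaling or a 2-fold limit, 3 with cells past several gates kept or a minimum of 1 CPM and 5 with none. In the wider list in stellate cells 4 were higher under either scaling, 7 with no minimum and 0 at 2-fold, and 2 were lower with cells past several gates kept, 3 by a mean of per-cell CPM, 16 with no minimum and 0 at 2-fold. Shares over all genes are given only for the minimum of 5 CPM and the 1.5-fold limit. The counts under other settings have no such share beside them, and no decrease of the family is read from them. Calls with no minimum include genes with few UMIs, such as Slit2 in stellate cells with 13 and 5. The cause of these shifts was not tested. At resolution 0.6, Robo2 was lower in 5 of 7 sub-clusters and Nrp1 in 7 of 7. Depth limits values outside stellate cells most, where 3 counts are 0.487 to 0.753 CPM in endothelial and Kupffer cells and 0.671 and 1.13 CPM in cells past no gate.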
